A study of Zea mays with 4 samples.

Results

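MADS-box genes encode transcription factors that share a DNA-binding MADS domain and act as dimers and larger complexes on short AT-rich DNA elements named CArG boxes. In flowering plants they are known above all for setting the identity of floral organs, where class A genes act in the outer organs, class B genes in petals (lodicules in grasses) and stamens, class C genes in stamens and carpels, class D genes in ovules, and class E genes as partners of the others. The maize kernel grows from a fertilised ovule inside the carpel wall, and it holds an embryo, an endosperm and the maternal pericarp together.

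The genes described here were all those on the array whose symbol or synonym carries a maize MADS-box name, that is zag, zmm, zap or mads followed by a number, bde1, or si1. This gave 19 genes with 20 probe sets among 1108 genes named on the array, and all 19 were matched through their Entrez identifier to RefSeq. The 10 genes with the highest mean over the 4 arrays were taken as members, with 11 probe sets. They are zmm27, bde1, zmm6, ZMM2, si1, zmm14, MADS67, zmm19, zag2 and ZAG1. They were chosen by their mean log2 level, so the levels are a description, and zag2 and bde1 were also chosen with their difference between the groups known, so no test is given for these. At the edge of the choice, ZAG1 had a mean of 5.84 just inside, and zmm16 and zap1 had means of 4.49 and 4.48 just outside. Other probe sets on the array have no gene name in the annotation, so further MADS-box genes may be measured there without being named here.

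RNA came from kernels of greenhouse-grown maize at 35 days after pollination, from the bt2 mutant with the allele bt2-H2328 and from wild type, with 2 samples each and 1 array for each sample. Bt2 codes for the small subunit of the starch enzyme ADP-glucose pyrophosphorylase, and bt2 kernels are known to hold more sugar and less starch. The inbred background, the number of plants or kernels behind a sample, and whether the samples of a group came from separate plants are not given in the labels, so the p-values reflect only how far these samples lie apart, which can include technical spread. Total RNA was 20 µg for each sample except mutant 2, with 17 µg. Expression is given as log2 GCRMA values, in which 1 unit is a 2-fold difference, and a probe set was counted as detected at a value of 4 or more.

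The labels and the tissue were checked first. bt2 read 10.13 and 10.12 in the mutant group, against 12.67 and 12.64 in wild type, so the mutated gene was lower in the mutants. Of 9 measured genes of the starchy endosperm list, 8 were detected on all 4 arrays, as were 6 of 7 embryo genes, while p1, a regulator of pericarp pigment and the only measured gene of its list, lay at or under 2.40 on every array. Mutant and wild type differed widely, with 43.2% of 10458 tested probe sets past a limma adjusted p of 0.05, 22.1% lower and 21% higher in the mutant. In 78.5% of probe sets the groups did not overlap. All differences hold on the scale of the deposited values. The poly-A controls, RNAs foreign to maize, read 1.20 higher on mutant arrays. Centring every array on these controls shifted each difference by -1.23, after which 78.7% of probe sets were lower and 2.91% higher in the mutant. Values on that second scale are given below where they turn a direction or a call of a MADS-box gene. Centring adds a shared shift to all probe sets of an array, which the fit treats as separate noise in each gene. The p-values on that scale therefore do not measure the spread of single genes between samples, and passing there is no separate evidence for a gene.

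Of the 19 MADS-box genes, 11 were detected on all arrays of both groups, 1, zap1, in the mutant group alone and 7 in neither group. Over all maize probe sets, 57.5% to 58.6% were at or over the limit on an array. That share counts probe sets on a single array, while the MADS-box count takes genes on both arrays of a group. The shares are therefore only roughly comparable. The plot of every MADS-box probe set shows these levels beside the detection limit. All 10 members were detected in both groups, as their choice by level makes likely.

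**Figure D1:**
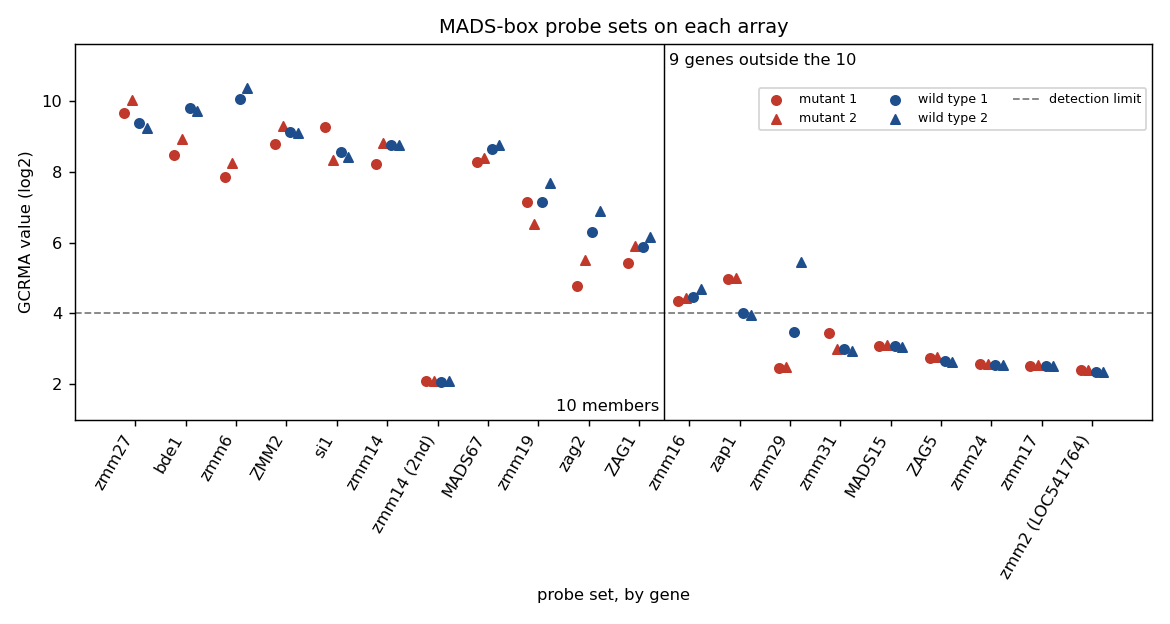
GCRMA value (log2, y axis) of every MADS-box probe set (x axis) on each of the 4 arrays, with mutants in red and wild types in blue and the detection limit of 4 as a dashed line. The 10 members stand left of the vertical line in order of their mean; zmm6 shows the widest gap between the groups, and 6 of the 9 other genes lie under the limit on every array.

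The class D gene zag2 and the class C genes ZAG1 and ZMM2 belong to the AGAMOUS branch of the family. zag2 (LOC542325) is known from maize ovules and carpels. It read 4.78 in mutant 1, 5.50 in mutant 2, 6.30 in wild type 1 and 6.90 in wild type 2. Both wild types lay above both mutants, while the samples within each group were also far apart, by 0.72 in the mutants and 0.60 in the wild types. The mean was 5.14 in the mutant and 6.60 in the wild type, so that the mutant mean was lower by a log2 difference of -1.46 (SE 0.35, n = 2 per group), which is 2.75-fold.

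ZAG1 (LOC542244), which in maize is needed for the determinacy of the female floret, read 5.42 and 5.89 in the mutant group, against 5.86 and 6.17 in wild type. Mutant 2 stood just above wild type 1, so the groups overlapped. The difference of -0.36 (SE 0.24) did not pass the limma test (adjusted p 0.286), and its 95% interval ran from -1.01 to 0.29. On the poly-A scale it was -1.59 and passed, with a limma adjusted p of 0.000372. ZMM2 (LOC100037764), the closely related class C gene, read 8.79 and 9.28 in the mutant group, against 9.11 and 9.08 in wild type. The wild types lay between the mutants. Its difference was -0.06 with a 95% interval from -0.59 to 0.47 and a limma adjusted p of 0.826. A true difference of any size within that interval remains possible. On the poly-A scale ZMM2 was at -1.29 and passed with a limma adjusted p of 0.000142. A second gene that also carries the name zmm2 (LOC541764) read 2.36 to 2.40 on the 4 arrays and was not detected in either group.

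bde1 (LOC542256, bearded-ear, also listed as ZAG3) is a gene of the AGL6 branch that in maize limits the floral meristem. It read 8.48 in mutant 1, 8.91 in mutant 2, 9.80 in wild type 1 and 9.72 in wild type 2. The wild types were close to each other and above both mutants. The difference of the means, 8.70 against 9.76, was -1.06 (SE 0.18, n = 2 per group), which puts the mutant 2.09-fold below the wild type. ZAG5 (LOC542709), of the same branch, was at 2.64 to 2.77 and thus not detected.

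Among the SEPALLATA-like genes, which are class E partners of the other classes, zmm6 was lower in the mutant by more than any other member. zmm6 (LOC542043, also listed as zmm7, so that its probe set may read more than 1 transcript) read 7.85 in mutant 1, 8.25 in mutant 2, 10.04 in wild type 1 and 10.36 in wild type 2. Each wild type stood well above each mutant, and the gap between the groups was several times the gap within them. zmm6 fell by 2.15 (SE 0.20, n = 2 per group), 4.44-fold, with a limma adjusted p of 0.00769, and its 95% interval ran from -2.69 to -1.61. Of all tested probe sets, 3.26% had a difference as low or lower. The call was lost without mutant 1, mutant 2 or wild type 2, at adjusted p values of 0.0733, 0.0730 and 0.0805, while the difference stayed between -2.35 and -1.95. With limma, no probe set of the whole table passed without any of those 3 arrays, although 3633 to 4617 then had an unadjusted p under 0.05.

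zmm27 (LOC542506), also SEPALLATA-like, went the other way in these samples. It read 9.65 and 10.02 in the mutant group, against 9.38 and 9.23 in wild type, so that both mutants lay above both wild types. The difference of 0.53 (SE 0.17) did not pass (limma adjusted p 0.0648), with a 95% interval from 0.08 to 0.98 before adjustment. Centred on the poly-A controls, it was -0.70 and passed with a limma adjusted p of 0.0142. zmm14 (LOC541985, also listed as zmm8), known in maize from the upper floret of the spikelet, read 8.22 and 8.81 in the mutants and 8.74 in both wild types. The groups overlapped, and the difference of -0.22 had a 95% interval from -0.84 to 0.39 and a limma adjusted p of 0.462, against -1.46 and 6.81e-05 on the poly-A scale. A second probe set of zmm14 disagreed on the level and read 2.08 to 2.10 on all 4 arrays. Whether the differences of zmm6, zmm27 and zmm14 differ from each other was not tested. 2 further genes of this group, zmm24 and zmm31, were not detected, with zmm31 at 3.45 in mutant 1 and 2.95 to 3.01 on the other arrays.

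**Figure D2:**
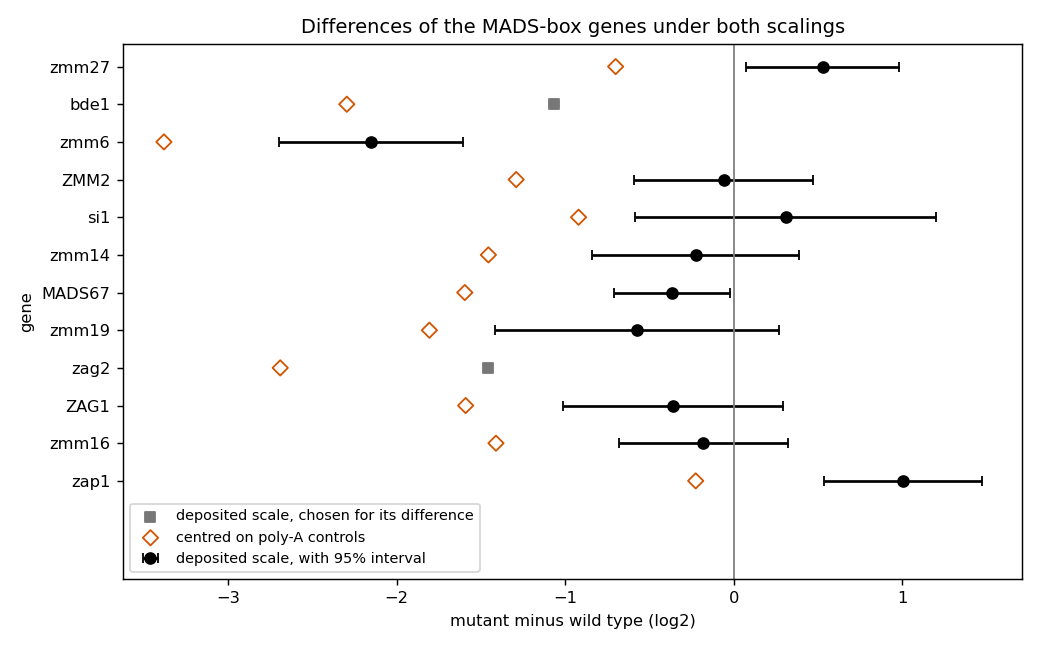
Difference between mutant and wild type (log2, x axis) for the 12 MADS-box genes kept after the filter on low values (y axis). Black points with bars give the deposited scale with the 95% interval, grey squares the genes chosen for their difference, and open diamonds the values centred on poly-A controls. On the deposited scale zmm6 lies at -2.15 and zap1 at 1.00; on the second scale all 12 are below 0.

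The class B genes set lodicule and stamen identity. si1 (LOC541799, silky1), in whose maize mutants stamens are replaced by carpel-like organs, read 9.25 in mutant 1, 8.33 in mutant 2, 8.55 in wild type 1 and 8.41 in wild type 2. Mutant 1 alone was high, and mutant 2 was the lowest of the 4. The difference of 0.31 (SE 0.33) therefore rested on mutant 1 and did not pass (limma adjusted p 0.485), with a 95% interval from -0.58 to 1.20. It was -0.15 without mutant 1, and -0.92 on the poly-A scale, where it passed with a limma adjusted p of 0.00346.

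zmm16 (LOC542019, also listed as sts1) and zmm29 (LOC542020) are class B genes of the PISTILLATA type. zmm16 stood just over the limit, at 4.36 and 4.43 in the mutant group against 4.47 and 4.68 in wild type, and its difference of -0.18 did not pass (limma adjusted p 0.471). It was -1.41 and passed on the poly-A scale, with a limma adjusted p of 0.00209. zmm29 read 2.47 and 2.48 in the mutants, 3.49 in wild type 1 and 5.44 in wild type 2. Only wild type 2 exceeded the limit, so zmm29 was not tested and no fold is given. zmm17, a gene of the sister group of class B that is known from ovules, was at 2.52 to 2.55 and not detected.

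Of the APETALA1 and FRUITFULL branch, MADS67 (LOC542045, also listed as m28) was a member. It read 8.27 and 8.39 in the mutant group, against 8.64 and 8.75 in wild type, and the groups did not overlap. The difference of -0.36 (SE 0.13) had a 95% interval from -0.71 to -0.02 before adjustment, and a limma adjusted p of 0.0796, so it did not pass. On the poly-A scale MADS67 was at -1.60 and passed, with a limma adjusted p of 1.04e-05. zap1 (LOC542257), an APETALA1-like gene outside the 10, read 4.96 and 5.01 in the mutant group, against 4.01 and 3.95 in wild type. The mutant mean of zap1 was higher by 1.00 (SE 0.17, n = 2 per group). Its wild-type values lie at the detection limit, and wild type 2 was under it. zap1 was thus kept through the mutants, so a fall could hardly have been shown, and no p-value is given. With any of the 4 arrays left out, the difference of zap1 ran from 0.975 to 1.035, and on the poly-A scale it was -0.22. MADS15, of the same branch, was at 3.06 to 3.10 and not detected.

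zmm19 (LOC542033, also listed as tunicate1), a gene of the SVP branch whose misplaced expression gives pod corn, read 7.15 and 6.52 in the mutant group, against 7.13 and 7.69 in wild type. Mutant 1 and wild type 1 were alike, and mutant 2 and wild type 2 lay at opposite ends. The difference of -0.57 (SE 0.31) did not pass (limma adjusted p 0.203), with a 95% interval from -1.42 to 0.27. Its value on the poly-A scale was -1.80 and passed, with a limma adjusted p of 2.17e-05.

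Of the 8 members not chosen for their difference, 1 fell, none rose and 7 did not pass at a limma adjusted p of 0.05, where 22.1% of all tested probe sets were lower and 21% higher. At an unadjusted p of 0.05, 3 passed, which were zmm6, zmm27 and MADS67. The groups did not overlap in 3 of these 8 members, against 78.5% of all tested probe sets: the wild types were above in 2, where 39.2% of all probe sets were, and the mutants in 1, where 39.3% were. The median difference of the 8 was -0.29, beside -0.015 over all tested probe sets. On the poly-A scale all 8 were lower and past the threshold, where 78.7% of all probe sets were, so that the share of members called lower depends on the scale. The plot of all differences against mean level places the members among the other probe sets.

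**Figure D3:**
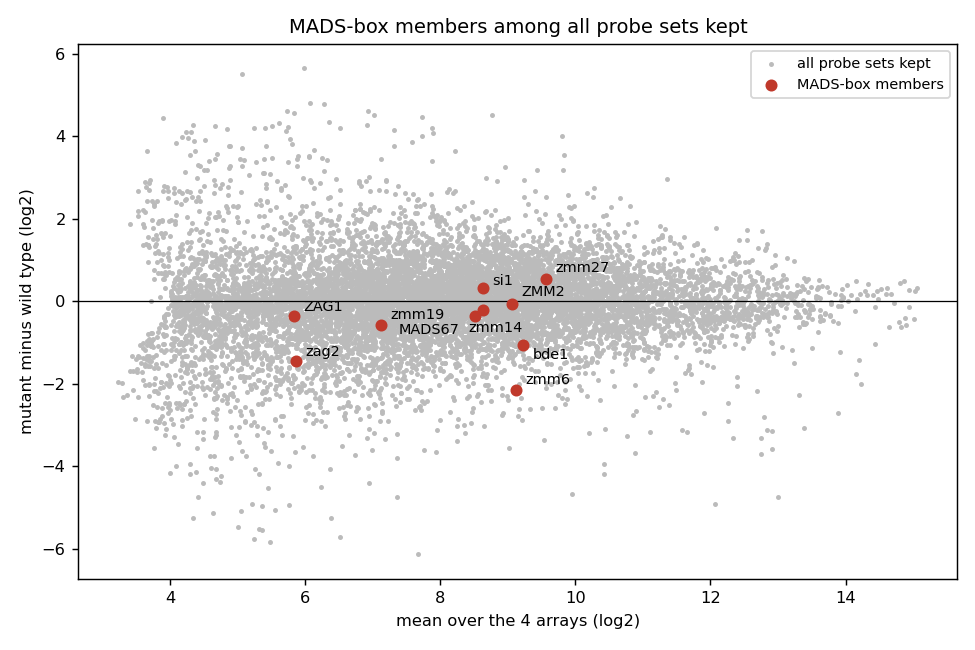
Difference between mutant and wild type (log2, y axis) against the mean over the 4 arrays (log2, x axis) for 10458 tested probe sets in grey and the 10 MADS-box members in red. Most members lie inside the grey cloud near 0, while zmm6, at -2.15, lies in its lower part. Of all tested probe sets, 3.26% lie as low or lower.

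The mutant samples lay further apart in these genes than in the median probe set. Mutant 2 was above mutant 1 in 8 of the 10 members, with a median difference of 0.41 and a range from -0.92 for si1 to 0.72 for zag2. Over all tested probe sets mutant 2 was above mutant 1 in 54.0%, with a median of 0.03. The median size of this difference, whatever its sign, was 0.48 in the members and 0.20 over all. Wild type 2 was above wild type 1 in 5 of the 10 members, where the median size was 0.14 beside 0.18 over all. Mutant 2 was also the sample with less total RNA, and the part of RNA amount in these gaps was not tested. Among the members that did not pass, the mutants lay on both sides of a wild type in ZMM2, si1, zmm14, zmm19 and ZAG1. In zmm27 and MADS67, which did not pass either, the groups did not overlap.

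**Figure D4:**
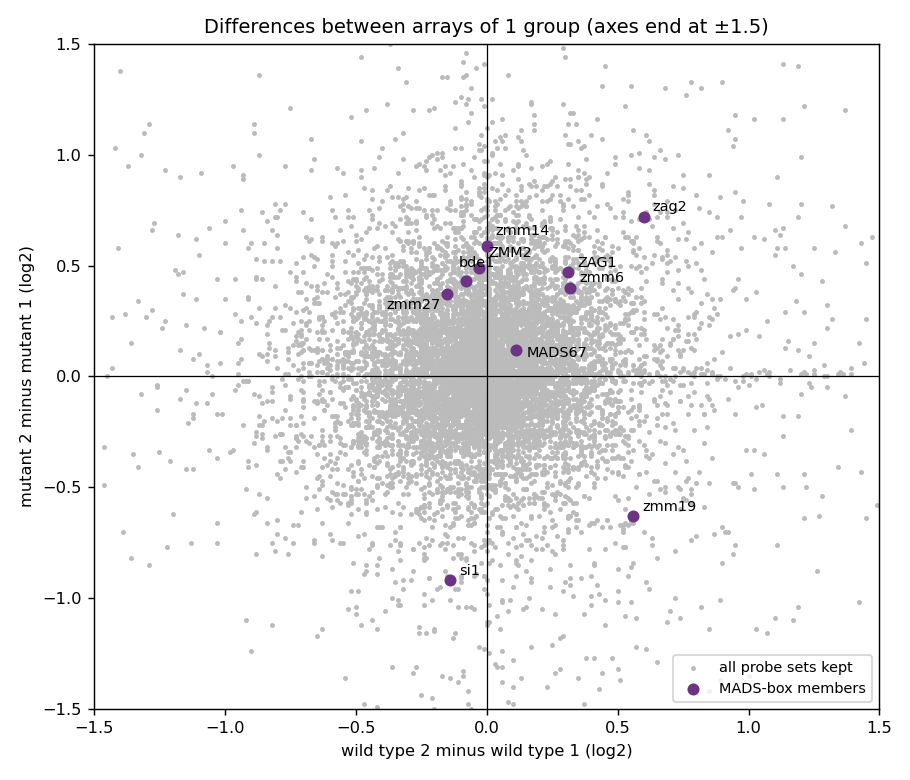
Mutant 2 minus mutant 1 (log2, y axis) against wild type 2 minus wild type 1 (log2, x axis), with the 10 MADS-box members in purple and the tested probe sets in grey; 219 probe sets lie beyond the axes. 8 members lie above 0 on the y axis, and si1 and zmm19 lie below.

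The kernel samples also differed in their tissue markers, and in bulk RNA fewer cells of a type and less RNA per cell cannot be told apart. Of 8 starchy endosperm genes tested, 5 fell and none rose, and the summed level of the list was 15.35 to 15.45 (log2) in the mutants and 15.94 to 15.95 in the wild types. On the poly-A scale the other 3 of these genes were lower and passed too, for example wx1, at 0.18 on the deposited scale and -1.05 there. On the deposited scale further probe sets of some of these genes differed in their call. For sh1 and zp27, which did not pass, another probe set was lower and passed, at -2.765 and -0.38. For o2, which passed, another probe set at -1.185 did not. Of 6 measured genes of the basal endosperm transfer layer, the sugar-importing cells at the kernel base, 1 was detected on all arrays and 2 were left out of the test. The 4 tested fell, but betl3, BETL1 and meg2 were under the limit in both mutants. These were kept only through the wild types, so a fall was the only outcome they could show. The summed level was 6.26 to 6.80 in the mutants and 9.04 to 9.80 in the wild types. Of 6 embryo genes tested, 3 rose and 3 did not pass, with summed levels of 16.77 to 16.84 and 16.45 to 16.57. Over all tested probe sets, 21% were higher and 22.1% lower. For vp1, which rose by 0.465, another tested probe set was at 0.065 and did not pass (limma adjusted p 0.959). On the poly-A scale all 6 embryo genes were lower and passed, for example rab17 at -0.82. Of 3 aleurone genes tested, 1 rose and 1 fell, with summed levels of 10.83 to 10.85 and 10.87 to 10.91. On the poly-A scale the rise of dek1 was 0.40 and did not pass (limma adjusted p 0.198), while Sal1 turned from 0.35 to -0.88 and passed (limma adjusted p 0.00245). Of 9 genes of photosynthetic tissue, none was detected on all arrays. The 2 tested, PSBQ and psaH, were under the limit in both wild types and kept only through the mutants. A rise was therefore the only outcome they could show. The summed level of the list was 7.45 to 7.73 in the mutants and 5.53 to 5.68 in the wild types. For control genes of maize, the log2 difference between 5′ and 3′ probe sets, which falls when RNA is broken or copied short, was lower in the mutant in 6 of 10 probe set pairs, with a median of -0.18 and a range from -1.54 to 1.13. Some pairs share a gene and its 3′ probe set, so the pairs are not independent. The highest values, 1.13 and 1.125, both came from the same actin gene, and the lowest were Gapdh at -1.54 and an ef1a pair at -1.42. The part of cell makeup and of RNA quality in the values of zmm6, zag2 and bde1 was not tested.

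Other genes of flower and inflorescence development were mostly under the limit. Of 18 such genes measured, 14 were left out of the test for low values, beside 7 of the 19 MADS-box genes and 40.6% of all maize probe sets, and the lists were not tested against each other. Those kept were lg3 and knox7, both homeobox genes of the KNOX class, fea2, a receptor-like protein that limits the inflorescence meristem, and ts2, a dehydrogenase-like gene needed for pistil abortion in the tassel. ts2 read 7.08 and 5.96 in the mutant group, against 3.65 and 2.83 in wild type. It was kept only through the mutants, so a rise was the only outcome it could show, and no p-value is given. Its mutant mean lay 5.74-fold above the limit of 4. The other 3 were tested and did not pass. The difference of lg3 was -0.38, that of knox7 was 0.20, and that of fea2 was -0.72, where both mutants, at 7.13 and 6.53, lay below the wild types at 7.49 and 7.61. On the poly-A scale all 3 were lower and passed, with lg3 at -1.61, knox7 at -1.03 and fea2 at -1.95. zfl1, a LEAFY-like regulator of floral identity, and kn1, the founding KNOX gene, were not detected, at 1.96 to 1.97 and 2.23 to 2.24.

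Genes that followed zag2 and bde1 most closely across the arrays were found among 692 other named genes, by the Euclidean distance between their 4 log2 values after each gene's own mean was taken off. The points share the same 4 arrays, so this is a description over 2 groups and says nothing of a shared role. Closest to zag2 was prp2, a pathogenesis-related gene, at a distance of 0.20, with 8.30 and 8.92 in the mutant group against 9.81 and 10.17 in wild type. The Polycomb gene fie1, known in maize for expression in the endosperm from the maternal copy, followed at 0.22, with 3.94, 4.84, 5.68 and 6.03 in the same order of arrays. CRH, a calreticulin gene also listed as crt2, brk1, which acts in actin assembly, and HP3, a phosphotransfer protein of cytokinin signalling, followed at 0.28, 0.35 and 0.37. Like zag2, all 5 were lowest in mutant 1 and highest in wild type 2, which their choice by closeness to zag2 makes likely.

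Closest to bde1 was CYTMDH, a cytosolic malate dehydrogenase gene also listed as mdh4, at a distance of 0.09. It read 9.87 and 10.24 in the mutant group, against 11.06 and 11.04 in wild type. The starch debranching gene iso2, the plastid import gene toc34B, Cat0, a catalase gene also listed as cat2, and ocl3, a homeobox gene of the outer cell layer, followed at 0.16, 0.18, 0.19 and 0.20. In all 5 the wild types were within 0.11 of each other and above both mutants, with mutant 2 above mutant 1, which their choice by closeness to bde1 makes likely. No other MADS-box gene was among the 5 closest to either.

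**Figure D5:**
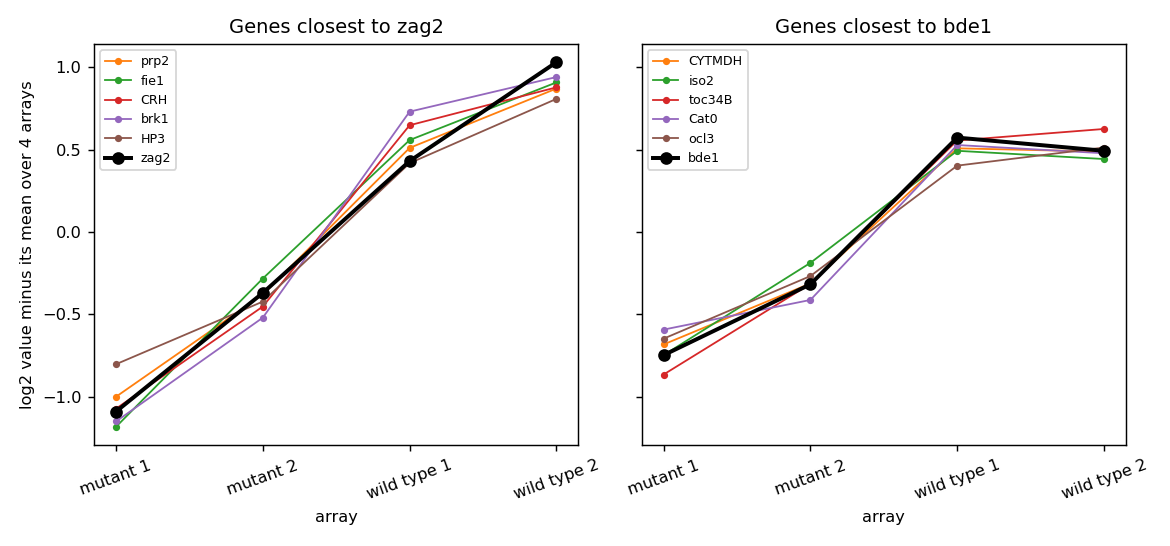
Log2 value minus the gene's own mean over the 4 arrays (y axis) on each array (x axis) for zag2 and bde1 in black and the 5 named genes closest to each in colour; lines only join the points of a gene. In both panels each gene is lower in both mutants than in both wild types, which the choice by closeness makes likely.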

How the data were processed

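Transcript levels were measured in 4 kernel samples on 1-colour Affymetrix maize arrays. The deposited values are log2 expression values per probe set, made by the authors with GCRMA per the submitters' processing notes. GCRMA models background from the sequence of each probe, normalizes the arrays and sums up the probes of a set. The sources used here name neither its version nor whether the arrays were normalized together. The log base was read from the values, which run from 1.31 to 15.44. There were 17734 probe sets, 113 of them controls, and 1 without values. Genes were named from an old platform annotation, updated through Entrez identifiers with RefSeq (Zm-B73-REFERENCE-NAM-5.0). No coordinates or sequences are given.

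Probe sets with a value of 4 or more on at least 2 arrays were kept, 10458 in all. The groups were compared by limma 3.58.1 in R 4.3.3 (lmFit, then eBayes with trend). Tests were two-sided, p-values were adjusted by Benjamini-Hochberg over the whole kept table, and the threshold was 0.05. SE stands for limma's moderated standard error. A gene with several probe sets is represented by that with the highest mean. A gene was detected in a group where a probe set reached 4 on both arrays. The fit was tested on simulated data. Alternatives changed the filter, normalization, scaling, variance model, pseudocount, replicate block, threshold, detection limit and each array left out. The members, gene lists and tests were chosen with earlier results of these data known. The text names every member, the 5 genes closest to zag2 and to bde1, bt2, and genes of the flower development list. Of the lists, 3 genes were left out as homonyms after their synonyms were seen, a catalase (Ct2), a haemoglobin (GLB1) and a transporter (MRP1). Figures were drawn with matplotlib 3.10.9. Precision is limited by the small number of arrays.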

Additional observations from a re-analysis of the deposited data

Results flagged for a closer look

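The poly-A control probe sets entered no comparison of genes, and they were higher on the mutant arrays than on the wild-type arrays by a median of 1.20 in log2. Hybridisation controls, which enter after the labelling step, were 0.135 higher in the median.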

How the results depend on the processing

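Both groups hold 2 samples, so the outcome for each MADS-box gene rests on few values. The fall of zmm6 passed under all 7 planned changes of filter, normalization, variance model, pseudocount, scaling and replicate block and at a threshold of 0.01, with adjusted p values up to 0.0293, but not without mutant 1, mutant 2 or wild type 2. Over the leave-one-out fits the number of the 8 tested members past the threshold ran from 0 to 1, that of all probe sets from 0 to 1195, and that of detected MADS-box genes from 12 to 13. Centred on poly-A controls, 8 of 8 tested members and 8536 probe sets passed, and zmm27 turned to -0.70, si1 to -0.92, zap1 to -0.22 and knox7 to -1.03, which follows from the shift of every value. At a threshold of 0.01, 1134 probe sets passed. zmm16 turned to 0.028 under quantile normalization. Without mutant 1, ZMM2 turned to 0.18, zmm14 to 0.07, si1 to -0.15 and knox7 to -0.03; over all leave-one-out fits these ran from -0.30 to 0.18, -0.52 to 0.07, -0.15 to 0.77 and -0.03 to 0.42. With limits of 3, 5 and 6 for detection, 15, 10 and 9 of the 19 genes were detected in at least 1 group, against 12 at a limit of 4, and 11 when every probe set of a gene had to be detected. The labels give samples of both groups the numbers 1 and 2, but same-numbered samples did not deviate together (r = 0.02 across probe sets, which are not independent), so the numbers were not taken as pairs. With the replicate block, 3444 probe sets and 1 of the 8 members, zmm6 at an adjusted p of 0.0293, passed.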
